A study of Bos taurus with 96 samples.

Results

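The enzymes of mitochondrial fatty acid beta-oxidation were followed across the muscle and fat depots of beef cattle. The set was chosen by name and holds 10 of the genes of the pathway: CPT1A, CPT1B, CPT2, ACADVL, ACADL, ACADM, HADHA, ECHS1, HADH and ACAA2. Of these, 9 were measured, by 25 probes among the 10564 genes that the probes of the array name, and CPT1A was not analysed here because no probe carried its name. The samples came from Bos taurus steers of 3 breeds (Angus, Hereford and Wagyu x Angus), and each was hybridised to its own array of a one colour Agilent 4x44K bovine design. Fat was taken from 5 depots, each represented by 12 arrays, 4 per breed: omental fat (Omen), kidney fat (Kid), the intermuscular fat between muscles (Inter), the subcutaneous fat of the rump (SC) and the marbling or intramuscular fat inside the muscle (IMF). All 60 fat arrays were from animals under pasture feeding, killed at 26 months of age. Longissimus dorsi muscle (LD) was represented by 24 arrays from pasture-fed steers, 8 per breed, and by 12 from steers given supplemental feeding, 4 per breed, and every sample carries the same label of 259 days in the feedlot. IMF was dissected out of the LD, whereas LD was sampled with its marbling fat in place, so neither is a pure tissue. By the methods the 2 diets refer to the period after weaning, and part of the LD samples, on both diets, came from steers of an earlier kill that the labels do not mark. The depots of a steer were sampled together, but the labels do not tie arrays to steers, and p-values therefore measure the spread between arrays only.

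Beta-oxidation shortens fatty acids by repeated rounds of dehydrogenation, hydration, a further dehydrogenation and thiolysis in the mitochondrial matrix, each round releasing acetyl-CoA for the citrate cycle and reduced cofactors for the respiratory chain. Long chains reach the matrix only as carnitine esters, through CPT1 on the outer membrane and CPT2 on the inner membrane, and CPT1 is blocked by malonyl-CoA, the first intermediate of fatty acid synthesis. Skeletal and cardiac muscle are known for high rates of the pathway, while white adipocytes mainly store and release the fatty acids that other tissues burn.

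Levels are given as the log2 processed signal of a probe minus the 75th percentile of its array, so that 0 is the brightness of the probe at that percentile, and each gene is represented by the brightest of its probes. Levels are set side by side within a gene only. All 25 probes were well above background on all 96 arrays, while over all probes this share ranged from 66.2% to 88.7% per array. The labelled tissues were checked by marker genes. The summed linear signal of 12 measured skeletal myofibre markers, relative to that percentile, was 4420 to 6260 on pasture LD arrays, 4000 to 6670 on supplement LD arrays, 1110 to 3310 on IMF arrays and 1.43 to 2.68 on SC arrays, where MYH2, TNNT1 and PYGM were not above background on most arrays. That of 9 measured adipocyte markers was 818 to 1410 in SC, 199 to 774 in IMF and 19.9 to 145 in pasture LD. Myofibre signal was thus present on every IMF array, and its part in the IMF values below was not tested except within the IMF arrays. In myofibre markers 1 Inter array (summed signal 887 against a median of 2.24) and 1 Kid array (19.8 against 2.38) also stood apart. Scan day followed tissue closely: the 12 IMF arrays were scanned on day 3, 11 of the 12 SC arrays on day 1 and all Inter arrays on day 2.

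**Figure D1:**
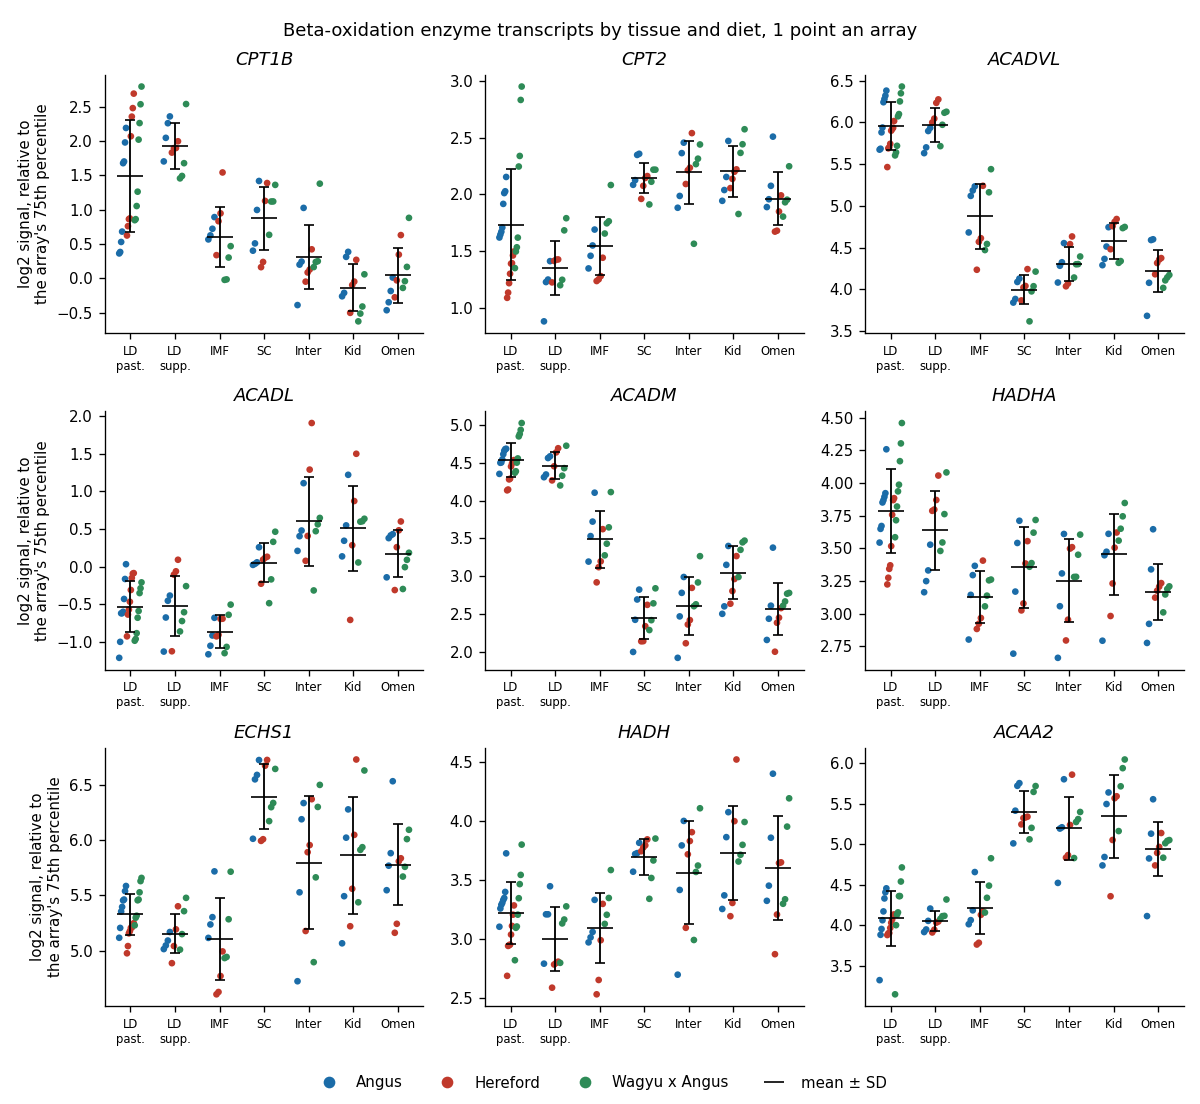
Level of each beta-oxidation enzyme transcript on every array (y axis, log2 signal relative to the 75th percentile of the array) by tissue and diet (x axis), with points coloured by breed and bars for the mean and SD. ACADVL and ACADM run highest in LD, with IMF between LD and SC, whereas ECHS1 and ACAA2 run highest in SC and low in both IMF and LD.

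Muscle and subcutaneous fat differed in both directions. In LD the very-long-chain and medium-chain acyl-CoA dehydrogenases were 3.89-fold and 4.27-fold higher than in SC, while the long-chain dehydrogenase and most enzymes of the later steps of the spiral were lower. ACADM, which catalyses the first dehydrogenation of medium chains, had a lowest, median and highest level of 4.14, 4.51 and 5.03 on the 24 pasture LD arrays and of 1.995, 2.42 and 2.84 on the 12 SC arrays. Every LD array lay above every SC array, and the difference was 2.09 ± 0.088 (SE), or 4.27-fold (adjusted p = 9.87e-23). ACADVL, which acts on the longest chains at the inner membrane, ranged from 5.46 through a median of 5.93 to 6.43 in LD and from 3.62 through 4.03 to 4.24 in SC. Again no arrays overlapped, and LD was 3.89-fold higher (difference 1.96 ± 0.091, adjusted p = 1.93e-21). ACADL, the dehydrogenase named for long chains, went the other way: its levels were -1.21, -0.58 and 0.03 in LD and -0.48, 0.08 and 0.47 in SC, a difference of -0.58 ± 0.11 (adjusted p = 9.65e-06) with overlap between the groups.

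The later enzymes of the spiral were mostly lower in muscle. ECHS1, the hydratase of short-chain enoyl-CoA, had levels of 4.98, 5.31 and 5.66 in LD and 5.99, 6.44 and 6.72 in SC. The groups did not overlap, and LD was 2.08-fold lower (difference -1.06 ± 0.081, adjusted p = 9.17e-15). ACAA2, a thiolase that releases acetyl-CoA at the end of a round, had levels of 3.15, 4.10 and 4.71 in LD against 5.01, 5.34 and 5.76 in SC. It showed the same separation of all arrays, with LD 2.49-fold lower (difference -1.31 ± 0.112, adjusted p = 1.88e-13). HADH, the dehydrogenase of short 3-hydroxyacyl chains, differed by -0.47 ± 0.084 (adjusted p = 3.2e-06) and CPT2 by -0.41 ± 0.143 (adjusted p = 0.00884), both with overlapping arrays and neither past the threshold on its second probe. HADHA, the subunit of the trifunctional protein that handles long chains, was higher in LD by 0.43 ± 0.111 (adjusted p = 0.000595), although under quantile normalization its difference was -0.04. CPT1B, the muscle form of the outer-membrane transferase, was higher in LD by 0.62 ± 0.246 on its brightest probe (adjusted p = 0.0201, the largest of the 9).

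Together, 4 members were higher and 5 lower in LD than in SC, and all 9 passed the threshold. Over all 34227 probes tested 42.6% were higher and 40.3% lower, so the number of calls is near the background of this comparison. The arrays of 2 members were all higher and of 2 all lower, where 19.4% of all probes were all higher and 19.7% all lower. The median difference of the members was -0.41 against 0.05 over all probes. Scanned on the same day, 8 LD and 11 SC arrays of day 1 gave the same 9 directions, with 1.94 for ACADM, 1.82 for ACADVL, -1.46 for ACAA2 and -1.16 for ECHS1. For CPT1B the difference was 1.48 on day 1 and 0.34 on day 3, where SC had 1 array. The pasture LD arrays of day 1 held no Angus and those of day 3 no Hereford.

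In IMF, 2 of the dehydrogenases stood above SC and 5 other members below it. ACADM had a lowest, median and highest level of 2.92, 3.48 and 4.11 on the 12 IMF arrays, against 1.995, 2.42 and 2.84 in SC. All IMF arrays exceeded all SC arrays, and the difference was 1.04 ± 0.133, or 2.06-fold (adjusted p = 2.88e-07). ACADVL ranged from 4.23 through 4.90 to 5.44 in IMF, where 11 of 12 arrays lay above the highest SC array, with a difference of 0.88 ± 0.123, or 1.84-fold (adjusted p = 1.22e-06). On the brightest probes these are also the 2 members with the largest excess in LD, and IMF lay between both tissues for each.

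The lower members were ECHS1, ACAA2, ACADL, HADH and CPT2. ECHS1 had levels of 4.61, 5.06 and 5.72 in IMF, all below the lowest SC array at 5.99, and was 2.44-fold lower (difference -1.29 ± 0.133, adjusted p = 1.13e-08). ACAA2 levels were 3.76, 4.17 and 4.83, again all below SC, with a 2.27-fold lower mean (difference -1.18 ± 0.118, adjusted p = 6.36e-09). ACADL levels were -1.16, -0.91 and -0.50, all below the lowest SC array at -0.48, with a 1.89-fold lower mean (difference -0.92 ± 0.099, adjusted p = 2.15e-08). HADH and CPT2 were each 1.52-fold lower, with differences of -0.60 ± 0.098 (adjusted p = 9.09e-06) and -0.60 ± 0.087 (adjusted p = 1.86e-06), and 10 and 11 of the 12 IMF arrays lay below all SC arrays. In the deposited table, which is not scaled between arrays and in which the median of all probes shifts by 0.63, these differences became 0.07 for HADH and 0.05 for CPT2. HADHA (-0.23 ± 0.107, adjusted p = 0.0649) and CPT1B on its brightest probe (-0.27 ± 0.177, adjusted p = 0.181) did not pass the threshold.

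The 2 members higher and 5 lower in IMF compare with 31.1% of all probes higher and 33.0% lower. All IMF arrays lay above SC for 1 member and below it for 3, beside 6.66% and 8.29% of all probes. The median difference of the 9 members was -0.60 against -0.004 over all probes. The only SC array scanned on the day of the IMF arrays gave a difference of the same sign for each of the 7 members called, from -1.48 for ECHS1 to 1.07 for ACADM. With scan day as a block, which rests on that array, ACADVL had an adjusted p of 0.103. None of the 9 differences depended on breed by the limma interaction test after adjustment (0 of 9, with 0.00584% of all probes called), although 3 had an unadjusted p under 0.05, for CPT2 (0.0144), HADH (0.0218) and CPT1B (0.0405). As these are bulk samples, fewer cells of a type and less RNA per cell cannot be told apart.

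Against pasture LD, part of it from an earlier kill than IMF, IMF was lower for 6 members and higher for none, but after quantile normalization 5 were lower and 3 higher (ECHS1, HADH and ACAA2). ACADVL (-1.08 ± 0.114, or 2.12-fold, adjusted p = 1e-10) and ACADM (-1.05 ± 0.102, or 2.07-fold, adjusted p = 1.22e-11) were lower on all 12 IMF arrays than on all 24 pasture LD arrays. CPT1B was lower by 1.86-fold on its brightest probe (adjusted p = 0.00129), and all 3 of its probes were lower past the threshold (-1.62 to -0.89). HADHA was lower by 1.58-fold (adjusted p = 3.71e-07) and ACADL by 1.26-fold (adjusted p = 0.00602). ECHS1 had a difference of -0.23 ± 0.093 (adjusted p = 0.0271), which was 0.32 after quantile normalization. Over all probes 39.3% were lower, and 11.5% were lower with no overlap. For ACADL and ECHS1 the IMF mean lay below the means of both SC and LD, with both differences past the threshold on the brightest probe. The second probes did not differ from LD past it (adjusted p = 0.919 for ACADL and 0.06 for ECHS1), and with slide as a random block the difference from LD had an adjusted p of 0.0985 for ACADL and 0.168 for ECHS1. CPT2, HADH and ACAA2 differed from LD by -0.19 ± 0.149, -0.13 ± 0.098 and 0.13 ± 0.118, none past the threshold on the brightest probe. In the unscaled deposited table, with a shift of all probes by 0.67, ACADL was 0.365, ECHS1 0.46 and HADHA 0.04 above LD. Against the 8 LD arrays of the same scan day the differences of CPT2 and HADH were -0.77 and -0.39, and that of CPT1B was -0.15. Those LD arrays held no Hereford, the breed with the lowest pasture LD means of CPT2 and HADH.

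**Figure D2:**
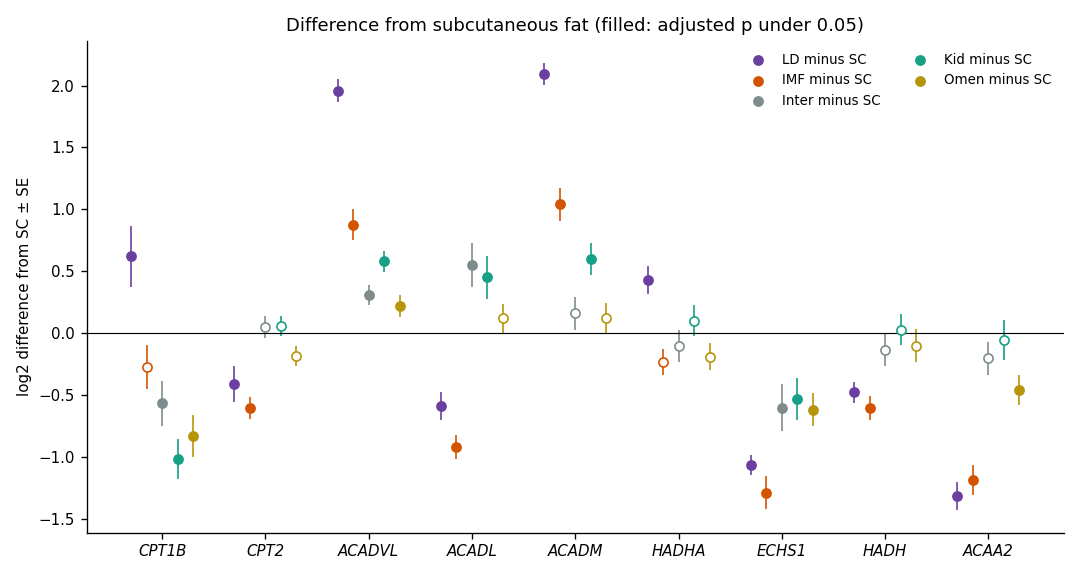
Difference of each tissue from SC for the 9 members (y axis, log2 difference with bars of 1 SE, filled points where the adjusted p was under 0.05), with LD the 24 pasture arrays. ACADM and ACADVL reach 2.09 and 1.96 in LD and 1.04 and 0.88 in IMF, ACAA2 and ECHS1 go below -1 in both, and the other fat depots mostly lie nearer to 0.

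The carnitine step carried a disagreement between probes. Of the 3 probes named CPT1B, the brightest had levels of -0.02, 0.60 and 1.54 in IMF and 0.16, 1.06 and 1.42 in SC (lowest, median, highest). The second had -1.41, -0.36 and 0.38 in IMF and -3.65, -2.68 and -2.14 in SC, with no overlap. It was 4.77-fold higher in IMF (difference 2.25 ± 0.228, adjusted p = 7.57e-09), and the third was 4.9-fold higher (2.29 ± 0.242, adjusted p = 1.59e-08). In LD the second and the third were 14.3-fold and 15.1-fold above SC (adjusted p = 2.87e-27 and 5.02e-27), against 1.54-fold for the brightest. In Kid they were higher than SC by 1.41 and 1.46 where the brightest was lower (-1.01 ± 0.161, adjusted p = 2.49e-05), and in Omen higher by 0.75 and 0.85 against -0.83. Over the 21 means of tissue, breed and diet the second and the third correlated at 0.996, and the lowest correlation with the brightest was 0.683. All 3 share 1 accession, and which of them follows the CPT1B transcript was not tested.

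The brightest CPT1B probe also divided the pasture LD arrays. On slides 20, 23 and 24 its level ranged from 0.36 to 1.26, and on slides 2, 13 and 14 from 1.68 to 2.79, with no array between. Each breed had 4 arrays on either side. The second probe, by contrast, ranged only from 0.66 to 1.499 over the 24 arrays (SD 0.257, against 0.812 for the brightest). The methods name 2 kills for the LD samples, which the labels do not give per array, so kill and slide cannot be told apart here. On SC arrays, all of 1 kill, the same probe was at 0.165 to 0.511 on slides 17 and 19 and at 0.636 to 1.42 on slides 15 and 16. For SC on slides 17 and 19 the log2 75th percentile was 9.565 to 10.04, and on slides 15 and 16 8.63 to 9.49. On pasture LD it was 8.73 to 9.61 on slides 20, 23 and 24 and 8.515 to 9.34 on slides 2, 13 and 14. It was 8.63 to 10.04 in SC, 9.95 to 10.4 in Inter, 9.39 to 10.71 in Kid and 9.75 to 10.47 in Omen. Its part in the levels of this probe was not tested.

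**Figure D3:**
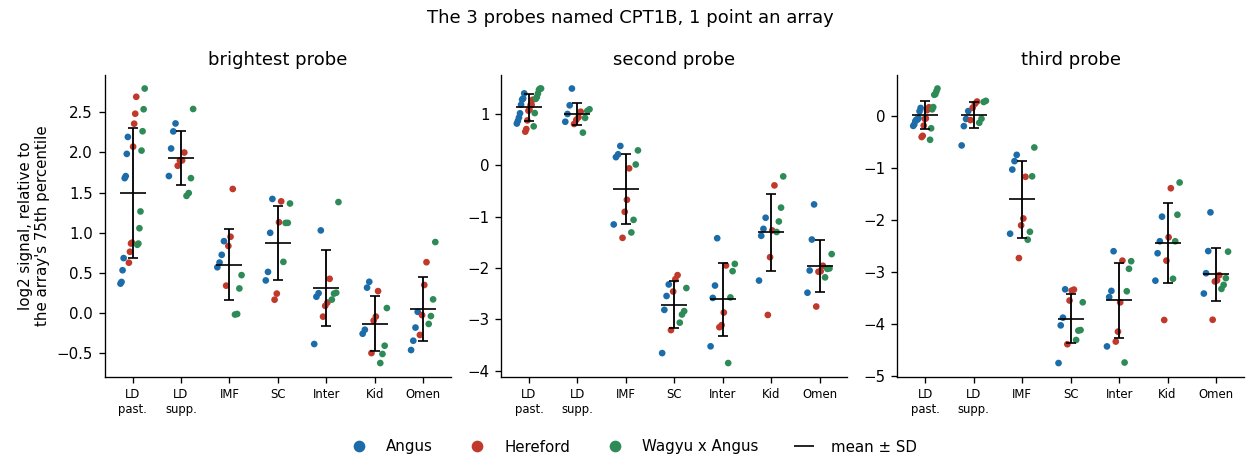
Level of the 3 probes named CPT1B on every array (y axis, log2 signal relative to the 75th percentile of the array) by tissue and diet, with points coloured by breed and bars for the mean and SD. The second and the third probe step down from LD through IMF to SC, while the brightest overlaps between IMF and SC and splits within pasture LD.

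For the other members the probes agreed in part. In IMF against SC all 4 ACADVL probes (0.77 to 1.23) and all 3 ACADM probes (0.40 to 1.04) were higher, and all 3 ACAA2 (-1.41 to -1.18), 3 ACADL (-0.97 to -0.88), 2 ECHS1 (-1.29 and -1.15) and 2 HADH probes (-0.60 and -0.45) were lower, each past the threshold. The second probe of CPT2 differed by -0.02 ± 0.093 (adjusted p = 0.849), against -0.60 for the brighter. In LD against SC the second probes of HADH (0.16 ± 0.102, adjusted p = 0.137) and CPT2 (0.05 ± 0.115, adjusted p = 0.686) did not pass, where the brighter ones were lower. In IMF against LD the second HADH probe was 1.53-fold lower (-0.61 ± 0.111, adjusted p = 6.12e-06), where the brighter did not pass. The correlation between the probes of a gene over the 21 means was 0.184 for CPT2 and 0.426 for HADH, and 0.889 or higher for every pair of the other members except CPT1B.

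Within IMF, 3 of the 4 enzymes that were higher in LD than in SC rose with the myofibre signal, and the exception was CPT1B on its brightest probe (-0.13 ± 0.182 per unit, adjusted p = 0.623). The mean log2 level of the 12 myofibre markers ran from 5.88 through a median of 7.15 to 7.74 over the 12 IMF arrays. Per log2 unit of that mean, ACADVL rose by 0.52 ± 0.077 (adjusted p = 0.000343), ACADM by 0.42 ± 0.108 (adjusted p = 0.0112) and HADHA by 0.21 ± 0.071 (adjusted p = 0.0382), and ACADL fell by 0.27 ± 0.063 (adjusted p = 0.00573). Thus 3 members rose and 1 fell, where 17.9% of all probes rose and 16.4% fell. Along the same axis all 9 adipocyte markers and 2 of 5 endothelial markers fell, while of 5 mesothelial markers 1 rose and 1 fell (KRT18, by 2.32 per unit), and their part in these slopes was not tested. Under quantile normalization 2 rose and 3 fell, with HADHA not past the threshold (0.12, adjusted p = 0.287) and HADH and ACAA2 falling, and 2 rose and none fell in the deposited table (ACADL -0.30, adjusted p = 0.072).

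For these 4 members Pearson's and Spearman's correlations over the 12 arrays had the same sign. For ACADVL, Pearson's r was 0.92 (permutation p = 8e-05, 0.00072 after Benjamini-Hochberg over 9 members) and Spearman's rho 0.895 (0.00022, 0.00198). ACADL had r = -0.868 (permutation p = 0.00039, adjusted 0.00176) and rho = -0.825 (0.00163, 0.00626), ACADM r = 0.769 (0.00398, 0.0119) and rho = 0.811 (0.00232, 0.00626), and HADHA r = 0.729 (0.00894, 0.0201) and rho = 0.797 (0.00278, 0.00626). Without the 2 arrays farthest from the median marker level these r were 0.908, -0.843, 0.799 and 0.777. HADH (-0.595), ACAA2 (-0.581) and ECHS1 (-0.408) had negative r and CPT2 (0.089, with a rho of -0.007) and CPT1B on the brightest probe (-0.199) small ones, none past the threshold after adjustment, while the second and the third CPT1B probe rose by 0.96 ± 0.088 and 1.02 ± 0.105 per unit (adjusted p = 9.37e-06 and 2.07e-05).

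**Figure D4:**
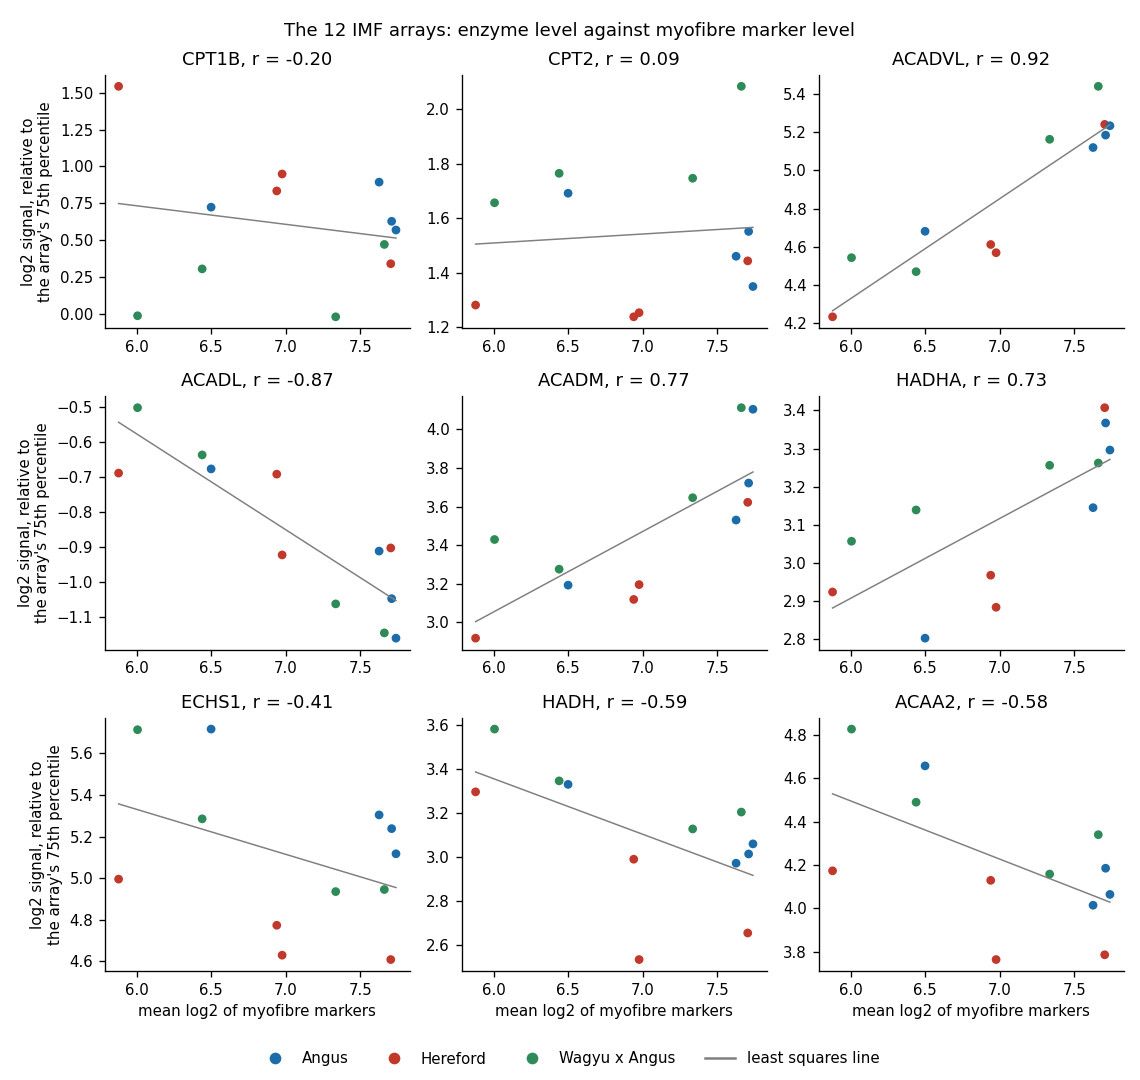
Level of each member (y axis, log2 signal relative to the 75th percentile of the array) against the mean log2 level of the myofibre markers (x axis) on the 12 IMF arrays, with the least squares line and points coloured by breed. ACADVL, ACADM and HADHA climb to the right (r of 0.92, 0.77 and 0.73), ACADL descends (-0.87), and CPT2 and CPT1B show little slope.

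In Inter, Kid and Omen 4, 5 and 4 of 9 members differed from SC. These counts are near the shares of all probes called, which were 48.8%, 41.7% and 45.8%. In Inter, ACADVL was 1.24-fold higher (0.31 ± 0.08, adjusted p = 0.00263) and ACADL 1.46-fold higher (0.55 ± 0.179, adjusted p = 0.0135). ECHS1 was lower (-0.60 ± 0.186, adjusted p = 0.0102), and so was CPT1B on the brightest probe (-0.56 ± 0.183, adjusted p = 0.0132). Other probes gave other calls: the second and the third ACADM probe were higher (0.80 and 0.48, adjusted p = 6.58e-05 and 0.00559), and the second probes of ACADL (adjusted p = 0.127) and ECHS1 (0.0644) did not pass. By the brightest probes 2 of 9 were higher and 2 lower, where 21.5% of all probes were higher and 27.3% lower, and the same 4 passed without the Inter array rich in myofibre markers. ACADL had an adjusted p of 0.0568 with slide as a random block, ECHS1 of 0.157 under quantile normalization, and CPT1B of 0.496 with all 96 arrays and scan day as a block. Scan day and depot cannot be told apart within these 2 groups. In the unscaled deposited table, where all probes shifted by a median of 0.98, ECHS1 was 0.43 and CPT1B 0.45.

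In Kid, ACADVL had levels of 4.29, 4.62 and 4.84, all above the highest SC array at 4.24, and was 1.5-fold higher (0.58 ± 0.084, adjusted p = 7.33e-06). ACADM was 1.52-fold higher (0.60 ± 0.128, adjusted p = 0.00058) and ACADL 1.37-fold higher (0.45 ± 0.174, adjusted p = 0.039), the latter with an adjusted p of 0.0615 without the myofibre-rich Kid array, 0.305 with scan day as a block and 0.0845 with slide as a random block. Of the 3 ACADL probes 2 passed, with differences of 0.25 to 0.49 over the 3. ECHS1 was lower (-0.53 ± 0.168, adjusted p = 0.0137), as was CPT1B by its brightest probe. The 3 higher and 2 lower members stand beside 19.3% and 22.4% of all probes, and the 1 with no overlap beside 1.75% all higher. On scan day 1, with 5 Kid and 11 SC arrays, ACADVL differed by 0.48, ACADM by 0.52, ACADL by 0.30 and ECHS1 by -0.70. Against SC the deposited unscaled table gave 0.41 for ECHS1.

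In Omen, ECHS1 (-0.62 ± 0.132, or 1.53-fold, adjusted p = 0.000537) and ACAA2 (-0.46 ± 0.121, or 1.37-fold, adjusted p = 0.00349) were lower. CPT1B was lower on the brightest probe (-0.83 ± 0.17, adjusted p = 0.000349), and ACADVL was marginally higher (0.22 ± 0.091, adjusted p = 0.0495). This makes 1 member higher and 3 lower, beside 20.5% and 25.3% of all probes. With scan day as a block, when 10 of 12 Omen arrays are set against 1 SC array, none of the 4 passed, with differences of -0.82 for ECHS1, -0.38 for ACAA2, -0.27 for CPT1B and 0.16 for ACADVL. Fitted with all 96 arrays and scan day as a block, ACADVL was -0.06. In the unscaled deposited table ECHS1, ACAA2 and CPT1B were positive (0.17, 0.38 and 0.06). ACADVL was higher and ECHS1 lower than SC in each of IMF, Inter, Kid and Omen, but these comparisons share the same 12 SC arrays, and both statements hold for the brightest probe. The second ECHS1 probe did not pass in Inter or Kid (adjusted p = 0.0644 and 0.0873), nor did the other 3 ACADVL probes in Omen (0.0691 to 0.154). Of the 3 ACADM probes in Omen 1, not the brightest, was higher past the threshold, with differences of 0.12 to 0.55 over the 3.

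Ordered over the 6 tissues on pasture by the brightest probe of each gene, ACADVL and ACADM fell from LD through IMF and Kid to Inter, Omen and SC. For ACADM the steps from LD to IMF (1.05), IMF to Kid (0.44) and Kid to Inter (0.44) exceeded the larger SD of the neighbours, and Inter, Omen and SC did not differ beyond it. On the second and the third ACADM probe, however, the means of IMF (0.08 and -0.003) lay below those of Kid (0.21 and 0.26) and Inter (0.10 and 0.08), and on the second SC (-0.70) lay below Omen (-0.15) beyond the SD. For ACADVL only the steps from LD to IMF (1.08) and Kid to Inter (0.27) did. ECHS1 and ACAA2 began with SC: the ECHS1 means of Kid, Inter and Omen (5.86, 5.79 and 5.78) lay within 1 SD, and ACAA2 dropped once beyond the spread, from Omen to IMF (0.73). ACADL was highest in Inter (0.61 ± 0.588 SD) and Kid (0.51 ± 0.568) and dropped beyond the spread from SC to LD. HADHA had 1 such step, from LD to Kid (0.33). CPT2, HADH and the brightest CPT1B probe had none between neighbours, whereas the means of the second CPT1B probe were 1.13 ± 0.257 (SD) in LD, -0.46 ± 0.688 in IMF and -1.30 ± 0.745 in Kid. Among the 5 fat depots IMF had, on the brightest probes, the lowest mean for CPT2, ACADL, HADHA, ECHS1, HADH and ACAA2, and the highest for ACADVL and ACADM. This was not so on the second probe of CPT2, the third of HADHA and the second and the third of ACADM.

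The members therefore did not move as a block. Over the 21 means of tissue, breed and diet, which share scan days and arrays' scaling, the correlation between pairs of members had a median of -0.164 over 36 pairs, from -0.841 (ACADVL with ACAA2) to 0.975 (ACADVL with ACADM). Over the 15 fat means the range was -0.747 (ACADVL with ECHS1) to 0.93 (CPT2 with ACAA2). Among 10555 other named genes the profiles most like that of the brightest CPT1B probe were INSM1 (r = 0.953), PITX3 (0.948) and RPLP0 (0.944), with 141 genes above 0.9. The profiles most like the mean of the other 8 members were USP14 (0.883), LETM1 (0.872) and CHCHD4 (0.867), with none above 0.9.

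The other genes of the pathway were compared in the same way. Of 34 measured genes of fatty acid activation, carnitine transport, the spiral, unsaturated fatty acids, electron transfer and the peroxisome, 4 were higher and 23 lower in IMF than in SC (median difference -0.58, against -0.004 over all probes), beside 31.1% and 33.0% of all probes. In LD 12 were higher and 18 lower (median -0.51, against 0.05), beside 42.6% and 40.3%. CRAT, which moves acetyl groups onto carnitine, was 3.6-fold higher in IMF (adjusted p = 5.45e-08), and SLC22A5, the carnitine importer, 1.82-fold higher (adjusted p = 2.21e-06). DECR1, the reductase needed for unsaturated chains, was 3.37-fold lower (adjusted p = 5.4e-08), and ACSL4, which activates long polyunsaturated fatty acids, 2.44-fold lower (adjusted p = 2.11e-10). In LD, CRAT and SLC22A5 were 11.8-fold and 4.86-fold above SC. Within IMF, CRAT rose by 0.98 per unit of the myofibre marker mean. Between the other depots and SC, 1 was higher and 12 lower in Inter (21.5% and 27.3% of all probes), 5 higher and 6 lower in Kid (19.3% and 22.4%), and 1 higher and 18 lower in Omen (20.5% and 25.3%). By role, 7 of 8 spiral genes and 8 of 10 peroxisomal genes were lower in IMF, and of 4 carnitine genes 2 were higher and 1 lower.

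The genes downstream of the spiral were counted in the same way, without a test against the members. Of 17 measured citrate cycle and respiratory chain genes, 12 were higher and none lower in IMF than in SC, all 17 were higher in LD than in SC, all 17 were lower in IMF than in LD, and all 17 rose with the myofibre markers within IMF. The matching shares of all probes were 31.1% higher and 33.0% lower in IMF, 42.6% higher in LD, 39.3% lower in IMF than in LD and 17.9% rising. In Omen 12 of them were lower than in SC and none higher, in Inter 9 lower and 1 higher, and in Kid 2 lower and 2 higher, with 25.3%, 27.3% and 22.4% of all probes lower in Omen, Inter and Kid. An example in IMF is SDHB, a subunit of succinate dehydrogenase (2.1-fold, adjusted p = 2.38e-05). Of 10 measured regulators 6 were higher and 2 lower in IMF than in SC, where 31.1% and 33.0% of all probes were. UCP3, an uncoupling protein of muscle mitochondria, was 87.8-fold higher (adjusted p = 5.55e-14). In LD UCP3 was 297-fold above SC, and within IMF it rose by 1.46 per unit of the myofibre marker mean. Against LD, 9 of the 10 regulators were lower in IMF and none higher, beside 39.3% of all probes lower. Within IMF 6 of them rose with the myofibre markers and none fell, beside 17.9% of all probes rising. ACACB, the acetyl-CoA carboxylase whose malonyl-CoA blocks CPT1, was not well above background on any SC array, and so was at least 29.3-fold higher in IMF (adjusted p = 4.62e-13) and at least 92.5-fold in LD (adjusted p = 4.66e-26). These folds compare the brighter group's mean with, on each array of the dimmer one, the faintest signal of any probe that was itself well above background. ANGPTL4 and PPARD were lower in IMF by 3.96-fold and 2.16-fold (adjusted p = 8.11e-09 and 2.18e-09).

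Markers of other cells moved with the same contrast. In IMF against SC all 12 myofibre markers were higher and all 9 adipocyte markers lower (median -1.40), as were 4 of 4 macrophage markers (-1.77) and 2 of 5 endothelial markers, while 2 of 5 mesothelial markers were higher and 1 lower. In LD against SC all 12 myofibre and 3 of 5 mesothelial markers were higher and all adipocyte, macrophage and endothelial markers lower. In IMF against LD all 12 myofibre markers were lower and all 9 adipocyte, all 5 endothelial and 3 of 4 macrophage markers higher. Of 5 mesothelial markers 3 were lower in IMF than in LD and 1 higher. In Inter against SC 5 myofibre markers were higher, 4 adipocyte markers lower and 1 higher, and 3 mesothelial markers lower, with 2 endothelial markers higher and 2 lower. Of 4 macrophage markers CD163 was 5.19-fold lower there and CSF1R 1.5-fold higher. In Kid 5 myofibre markers were higher and 1 lower, 2 adipocyte and 3 mesothelial markers were lower, 2 endothelial markers were higher and 1 lower, and CD163 was 4.34-fold lower as the only macrophage marker of 4 to pass. In Omen 6 myofibre markers and 4 adipocyte markers were lower and 1 adipocyte and 2 endothelial markers higher, CD163, again the only 1 of 4, was 4.9-fold lower, and of the mesothelial markers 2 were higher, KRT18 by 5.74-fold, and 2 lower. Their part in the values of the enzymes outside IMF was not tested.

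Supplemental feeding changed none of the 9 members in LD by limma after adjustment (0 of 9, against 11.2% of all probes), with breed as a covariate. By the methods the earlier kill held steers of both diets, and as the labels give no kill per array, diet and kill cannot be told apart here. The median difference of the members, supplement minus pasture, was -0.08 against 0.01 over all probes, and 3 had an unadjusted p under 0.05. CPT2 had levels of 0.88, 1.33 and 1.79 on the 12 supplement arrays and 1.09, 1.62 and 2.95 on the 24 pasture arrays, a difference of -0.39 ± 0.13 (adjusted p = 0.0501). ECHS1 differed by -0.18 ± 0.06 (adjusted p = 0.0517) and HADH by -0.22 ± 0.078 (adjusted p = 0.0636). All groups overlapped. Equal-variance tests as in the study's methods, adjusted the same way, also called none. Of the other genes of the pathway 5 of 34 were lower on supplement and none higher, beside 5.53% and 5.69% of all probes. Cell markers moved with diet as well: 5 of 9 adipocyte markers were lower on supplement (summed signal 20.3 to 57) and 4 of 5 endothelial and 2 of 12 myofibre markers higher, and their part in the enzyme values was not tested. With slide as a random block only 0.00292% of all probes were called for diet, so that at most 1 call of any list could remain. When only pasture arrays of the same breed and scan day were used, the CPT2 difference was -0.47 in Angus, -0.02 in Wagyu x Angus and -0.04 in Hereford.

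HADHA was the member whose response to supplement differed between breeds (F = 8.67, adjusted p = 0.0138), 1 of 9 against 16.2% of all probes. In Angus its mean was 3.32 ± 0.156 (SD) on 4 supplement arrays and 3.83 ± 0.22 on 8 pasture arrays, a difference of -0.51. In Wagyu x Angus the difference was -0.28, and in Hereford it was 0.35, from 3.88 ± 0.125 and 3.53 ± 0.27. Against pasture arrays of the same scan day the 3 differences were -0.43, -0.06 and 0.12. The test did not pass with scan day as a block (adjusted p = 0.169), with slide as a random block (0.98) or with normexp background correction (0.0742). The 4 supplement arrays of a breed share 1 slide.

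Breeds differed in LD for 3 of 9 members on the 24 pasture arrays, beside 14.7% of all probes. These were CPT2 (F = 7.92, adjusted p = 0.0282), ECHS1 (F = 7.54, adjusted p = 0.0314) and HADHA (F = 6.40, adjusted p = 0.0451). In each, Wagyu x Angus had the highest mean and Hereford the lowest: CPT2 was 2.05 ± 0.631 (SD) against 1.31 ± 0.151, a difference of 0.73 ± 0.191 (SE, adjusted p = 0.021), HADHA 4.00 ± 0.298 against 3.53 ± 0.27 (0.47 ± 0.132, adjusted p = 0.0293) and ECHS1 5.45 ± 0.156 against 5.16 ± 0.097 (0.29 ± 0.079, adjusted p = 0.0258). For CPT2 the Wagyu x Angus mean rested on slide 20, whose 4 arrays ranged from 2.25 to 2.95, while the other 4 arrays of that breed ranged from 1.35 to 1.62. With scan day as a block or slide as a random block none of the 3 passed. Of the adipocyte markers 5 of 9 also differed between breeds in LD, as did 3 of 5 endothelial markers and 1 of 5 mesothelial markers, and their part here was not tested. With slide as a random block 0% of all probes were called, these markers included. Over the 60 fat arrays no member passed limma's F test over the 3 breeds (0 of 9, against 3.19% of all probes). The smallest adjusted p there was 0.0695, for ACADM, which had an unadjusted p of 0.0028 as the only one under 0.05. Its means over fat were 3.01 in Wagyu x Angus, 2.84 in Angus and 2.64 in Hereford. The 60 fat arrays hold depots of the same steers, taken as independent in the fit, so p-values over fat are too small. A pairwise contrast over fat was planned only for members past the F test, and ACADM did not pass it. Taken as a pair, Wagyu x Angus exceeded Hereford in ACADM by 0.36 ± 0.1 (SE, adjusted p = 0.028), a contrast that called 3.46% of all probes, and in LD by 0.33 ± 0.1 (adjusted p = 0.0365, with 10.8% of all probes called), where its F test did not pass (adjusted p = 0.0584, and 0.587 with slide as a random block).

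**Figure D5:**
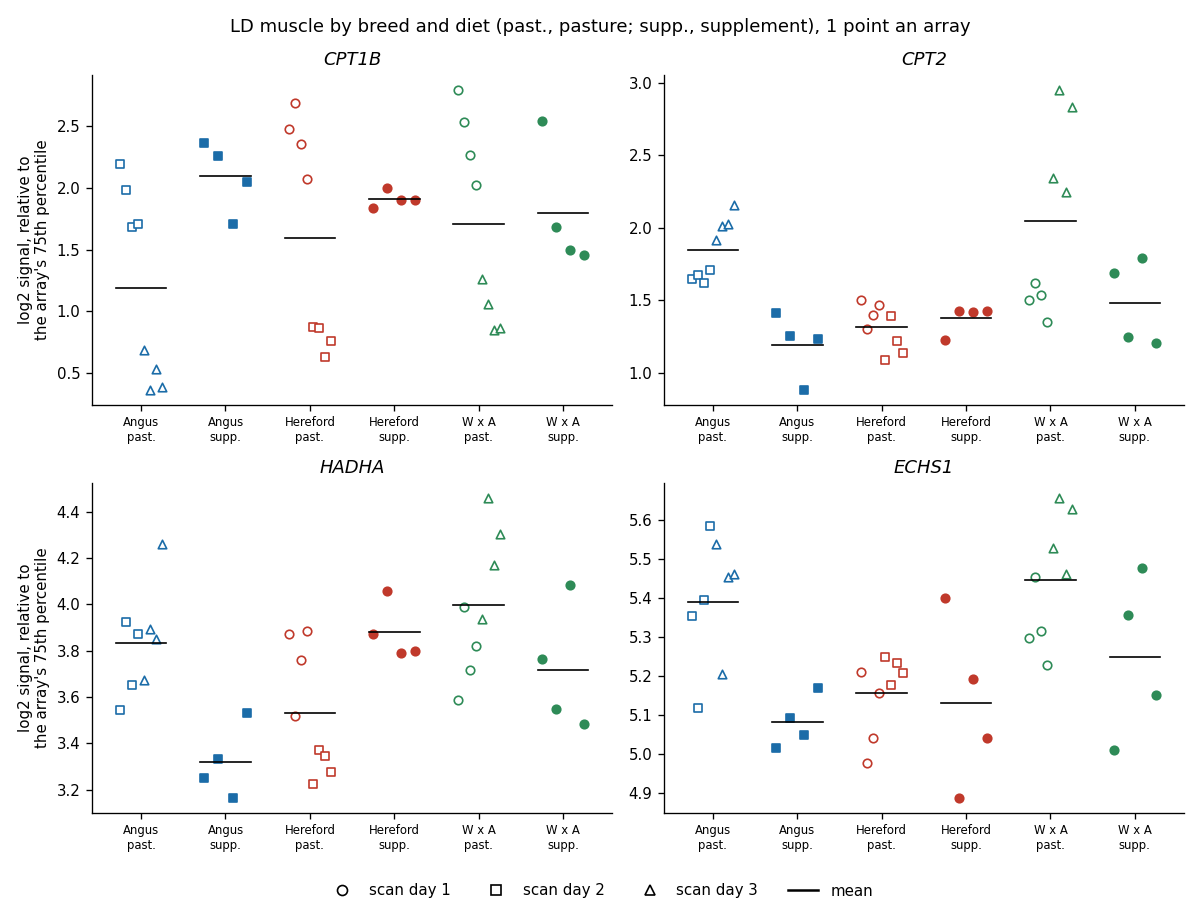
Level of CPT1B, CPT2, HADHA and ECHS1 in LD by breed and diet (x axis). The y axis is log2 signal relative to the 75th percentile of the array. Each point is 1 array, with the symbol giving the scan day and a line for the mean. HADHA lies lower on supplement in Angus (-0.51) and higher in Hereford (0.35), and the CPT1B points of pasture arrays separate by scan day within each breed.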

How the data were processed

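Agilent Feature Extraction 10.7.3.1 had read the 96 arrays, and the intensity values that the authors deposited are its linear processed signals, background subtracted and not scaled between arrays. A matrix of log2 values that the authors deposited for 34227 probes served as an alternative and set the probes tested. Its 3285792 values are the log2 of the median signal of a spot less its median local background to within 0.0001, averaged over spots and not scaled. Normalisation of the study's own model was not repeated.

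Here log2 of the processed signal was taken relative to the 75th percentile of each array. Control and outlier spots were left out, spots of a probe were averaged, and no filter on dim probes was set. The signal over background, not a read depth, limits precision on arrays. A probe was named by its RefSeq accession or by the probe tables of the study where these did not conflict, which gave 21251 probes with 1 gene and 124 conflicts. All members are reported, each by the named probe with the highest mean over all arrays. Of other lists, counts are given and as examples the 2 genes with the largest difference past the threshold in each direction in IMF minus SC, of which 1 is not reported here, and a few markers. The members and gene lists were chosen with earlier results of these data known. Comparisons used lmFit and eBayes of limma 3.58.1 (two-sided) in R 4.3.3 with version 1.17.8 of data.table and statmod 1.5.0, with Benjamini-Hochberg adjustment over all 34227 probes and a threshold of 0.05. The arrays of the groups compared entered each fit, breed was a covariate for diet and depot for breed over fat, and folds are 2 to the power of the log2 difference. Correlations used 100000 permutations with seed 1, two-sided. The fits were also run on simulated data of 30026 probes with 200 changed. Of changes of 1 log2 unit the IMF minus SC fit recovered 95%. The fit of IMF minus SC by breed recovered 67% and that of diet by breed 82%. The simulated arrays were independent, with noise set below the SD of each probe and no slide or scan day effect. These shares therefore do not give the power in the real data.

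Replicate numbers equal the position on a slide. Over 1075 pairs of arrays of other groups and slides with the same number, the median correlation of deviations from group means was 0.012, against -0.006 for other numbers, so the numbers did not pair the samples. Alternatives were quantile normalization, mean centring, normexp background correction (offset 50), the deposited log2 matrix, all 43653 non-control probes, a filter on dim probes, replicate number, scan day or slide as a block, the probe with the median difference, breed as a covariate or none, an equal-variance test as in the study's methods, all 96 arrays with scan day as a block, or all 36 LD arrays, in the fit, and leaving out single arrays. Leaving out the myofibre-rich Inter and Kid arrays was chosen after seeing the data. A planned comparison of CPT1B with CPT1A was not run because no probe was named CPT1A.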

Additional observations from a re-analysis of the deposited data

Results flagged for a closer look

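Over the 9 members in each of 21 groups of tissue, breed and diet (4 to 8 arrays), 189 sets of values in all, 11 had an array that stood far from the rest (by the gap to its neighbour over the range of the group), where chance alone marks about 1 in 20. In CPT1B, an Inter Wagyu x Angus array (slide 5 position 1) was at 1.38 on the brightest probe and the other 3 at 0.17 to 0.25. The supplement Hereford LD array on slide 12 position 1 was low for 3 members, with CPT2 at 1.23 against 1.42 to 1.43, ACADL at -1.12 against -0.10 to 0.09 and HADH at 2.59 against 2.79 to 2.81. ACADL also had single arrays apart in Kid Wagyu x Angus (0.06 against 0.60 to 0.64), Omen Angus (-0.14 against 0.38 to 0.43), SC Angus (0.26 against 0.02 to 0.06) and SC Hereford (-0.22 against 0.09 to 0.13). HADHA was at 3.41 on 1 IMF Hereford array against 2.88 to 2.97, and that array had the highest myofibre marker level of its breed in IMF. ACAA2 was at 3.15 on 1 pasture Wagyu x Angus LD array against 4.00 to 4.71, and at 4.32 on 1 supplement Wagyu x Angus LD array against 4.08 to 4.12.

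The response of HADHA to supplement differed between breeds by the interaction test (F = 8.67), negative in Angus and Wagyu x Angus and positive in Hereford. It was 1 of 9 members tested, and it did not pass with slide as a random block.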

How the results depend on the processing

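Of the comparisons of 2 groups, the counts of members past the threshold in IMF, Kid and LD against SC and in IMF against LD stayed within 1.5 times the reported count under every alternative run, but the split by direction moved in the deposited table: in IMF against SC 4 were higher and 2 lower (2 and 5 as reported), with 7 and 0 in Kid (3 and 2), 3 and 4 in LD (4 and 5), and 5 and 0 in IMF against LD (0 and 6). Quantile normalization gave 3 higher and 5 lower in IMF against LD. In Inter against SC the deposited log2 table gave 8 in place of 4. In Omen against SC that table gave 7 and scan day as a block 0, in place of 4. For diet in LD, where none passed, 1 did under quantile normalization, 3 did in the deposited table and 2 with the filter on dim probes. The dependence of diet on breed, with 1 member, had 0 under normexp, the deposited table and slide as a random block, and with scan day as a block had CPT1B (adjusted p = 0.0207) in place of HADHA. Breed over fat had 1 under quantile normalization in place of 0. Breed in LD, with 3, had 1 under quantile normalization, normexp and the probe of median difference, and 0 under the deposited table, scan day and slide. The slope on muscle signal within IMF, with 4, had 2 under the deposited table.

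Directions turned mainly in the deposited table, which is not scaled. In IMF against SC these were CPT1B (0.39), CPT2 (0.05), HADHA (0.39) and HADH (0.067). In Inter they were CPT1B (0.45), HADHA (0.90), ECHS1 (0.43), HADH (0.84) and ACAA2 (0.83). In Kid they were ECHS1 (0.41) and ACAA2 (0.89). In Omen they were CPT1B (0.062), CPT2 (0.68), HADHA (0.57), ECHS1 (0.17), HADH (0.80) and ACAA2 (0.38). In IMF against LD they were CPT2 (0.50), ACADL (0.365), HADHA (0.043), ECHS1 (0.46) and HADH (0.58). In that table the median of all probes shifted by 0.63, 0.98, 0.83, 0.81 and 0.67. Quantile normalization turned HADHA in LD against SC (-0.035) and ECHS1 (0.32) and HADH (0.29) in IMF against LD. The CPT1B probe of median difference was the second probe, at 2.25 (IMF), 0.10 (Inter), 1.41 (Kid) and 0.75 (Omen). With all 96 arrays and scan day as a block in the fit ACADVL in Omen was -0.06. The deposited table differs in both its scaling and its signal, which were not separated, and apart from the choice of probe the cause was not tested.

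With the replicate number as a block, 7 members passed in IMF against SC as before, and ACADVL in Omen was the only call that it ended (adjusted p = 0.0906). Leaving out single arrays gave 7 to 8 members in IMF against SC. The eighth was HADHA, with adjusted p of 0.0463 without the SC Hereford array on slide 16 position 4, 0.0109 without the SC Angus array on slide 17 position 1, 0.0402 without the SC Hereford array on slide 17 position 2 and 0.0454 without the IMF Hereford array on slide 18 position 4. For diet, leave-one-out gave 0 to 3 members, with 0 in 19 of 36 runs and 3 without the pasture Wagyu x Angus array on slide 14 position 2.

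The share of all probes called moved by over 1.5 times in 24 cases. It was 20% with scan day as a block in IMF against SC (64.2% as reported), 90.7% in the deposited table in Inter (48.8%), 62.6% under normexp and 77.8% in that table in Kid (41.7%), and 84.8% in that table and 4.41% with scan day in Omen (45.8%). For diet (11.2%) it was 3.28% under normexp, 17.3% in the table, 6.71% with scan day, 0.00292% with slide, 7.19% without breed and 7.01% by the equal-variance test. For diet by breed (16.2%) it was 3.34%, 2.48%, 8.65% and 0% under normexp, the table, scan day and slide. For breed over fat (3.19%) it was 1.94% under mean centring, 2% under normexp and 0.888% in the table, and for breed in LD (14.7%) 7.42%, 7.90% and 0% under normexp, the table and slide. The breed dependence of IMF against SC (0.00584%) had 0.00292% and 0%. Of the probes called in IMF against SC 48.5% were higher, but 26.3% under normexp and 92% in the table. For Inter these were 44%, 19.1% and 99.6%, with 62% under mean centring, for Kid 46.3%, 19.8% and 98.4%, with 57.4%, for Omen 44.7%, 16.3% and 99%, and for IMF against LD 47.8%, 27.3% and 86.1%. For diet 50.7% became 5.4% in the table and 0% with slide.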
